A study of Rattus norvegicus with 6 samples.

Results

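The 36 genes described here are chemokines, cytokines, their sensors and the NF-kB subunits, inhibitors and adhesion molecules that respond with them. They were chosen by name, with earlier results of these data known, and were looked up by gene symbol among the 16770 genes of the count table, where all 36 had a row. The cells were grown out of pieces of the proximal aorta of 3-month-old rats of 2 inbred strains. The strains were Wistar Kyoto (WKY), which has normal blood pressure, and the spontaneously hypertensive rat (SHR). The culture medium was one for endothelial cells, to which serum, P/S and an endothelial growth supplement were added, and the labels name no other treatment. Each strain had 3 libraries of total RNA. In both strains replicates 1 and 2 belong to batch 1 and replicate 3 to batch 2, and the labels do not say what a batch shared. The labels give 3 per strain without saying that each library is its own animal, so the p-values cover only how these libraries vary, which may be technical.

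NF-kB is a family of transcription factors, among them p65 (encoded by Rela), p105/p50 (Nfkb1), p100/p52 (Nfkb2) and RelB (Relb), that inhibitors such as IkB-alpha (Nfkbia) hold in the cytoplasm. Signals from Toll-like receptors and from the receptors of interleukin-1 and tumour necrosis factor free the factors, which then switch on chemokines, cytokines, adhesion molecules and their own inhibitors. In the vessel wall these products draw leukocytes from the blood and hold them on the endothelium, and fibroblasts and smooth muscle cells make many of them too.

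Of the 36 members, 32 had a count in at least 1 library and 25 passed the filter on low counts and were tested. Ccl5, Il1a, Il1b and Csf2 had 0 counts in all 6 libraries, and a count of 0 allows up to 0.151 to 0.187 CPM (the estimated count relative to the scaled library size; 3 counts, for counting error only). Cxcl2, Ccl20, Il6, Tnf, Csf3, Sele and Selp had counts too low to be tested. Libraries held 18462032 to 19947286 counts, a similar depth in both strains.

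WKY replicate 1 stood apart from the other 5 libraries in these genes. Of the 32 members with a count, 10 were at least 4-fold higher in it than in every other library (0.5 CPM added to each level). They were the chemokine genes Cxcl1, Cxcl2, Ccl2, Ccl7 and Ccl20, the cytokine genes Il6 and Lif, the receptor gene Tlr2, the selectin gene Selp and the superoxide dismutase gene Sod2. The same was true of 0.327% of the 16193 genes with a count. Among genes tested the numbers were 6 of 25 members and 0.238% of all. None of the 32 members stood out in this way in any other library, where the shares of all genes were 0.0371% (WKY replicate 2), 0.457% (WKY replicate 3), 0.0309% (SHR replicate 1), 0.0185% (SHR replicate 2) and 1.32% (SHR replicate 3). This is a description of 1 library, with no replicate behind it. Every strain difference of a member is therefore given with and without that library.

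Markers were read in every library. Of 15 endothelial markers in the table, the defining genes were near absent, with Cdh5 at 0 to 0.11 CPM, Tie1 at 0 to 0.05 CPM and Pecam1 at 0.11 to 2.18 CPM. Others were measured, Eng at 118 to 635 CPM, Flt1 at 7.03 to 79.3 CPM and Egfl7 at 6.39 to 27.2 CPM. The endothelial label was thus not borne out by Cdh5, Tie1 and Pecam1, and the fibroblast marker Col1a1 stood at 3846 to 10878 CPM. The leukocyte genes Ptprc, Adgre1, Aif1, Itgam and Laptm5 were at 0 counts in all 6 libraries, and the 13 leukocyte markers in the table summed to 20.04 CPM in WKY replicate 1 and 13.3 to 29.7 CPM in the others. The 11 fibroblast markers summed to 5838 CPM in WKY replicate 1 and 9830 to 15986 CPM in the others, the 9 mesothelial markers to 679 and 174 to 1395 CPM, the 10 smooth muscle markers to 784 and 876 to 8580 CPM, and the 15 endothelial markers to 220 and 224 to 661 CPM. Adipocyte markers summed to 18.7 and 0.311 to 18.6 CPM, and Schwann cell markers to 9.14 and 1.49 to 61.9 CPM. Sums of the mesothelial, leukocyte and adipocyte markers were highest in WKY replicate 1 and SHR replicate 3 (679 and 1395, 20.04 and 29.7, and 18.7 and 18.6 CPM). Among the members tested, Nfkbia, Nfkb1, Relb, Icam1, Cxcl16, Cxcl10, Cx3cl1 and Cd14 were highest in that pair too. The share of all genes with this order was not counted. In WKY replicate 1 each sum was mostly 1 gene, Msln (620 CPM), Cd68 (19.4 CPM) and Fabp4 (18.6 CPM). The same genes made up most of each sum in SHR replicate 3 too. The other mesothelial markers were lower in WKY replicate 1, such as Upk3b (1.16 CPM) and Krt18 (0.252 CPM), against 166 and 39.1 CPM in SHR replicate 3. The sums thus do not show that the 2 libraries shared a cell type. Sums of the endothelial, fibroblast and smooth muscle markers were lowest in WKY replicate 1. The part of any of these markers in the levels of the members was not tested.

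NF-kB binds a short DNA element, the kappa B consensus, and the promoters of the members were searched for it. RefSeq (GRCr8 build, from the BN/NHsdMcwi rat and so neither WKY nor SHR) gave promoters for 28 members, with 2 starts for Il33, and the 250 bases before each start were searched on both strands. The consensus was present in 11 of these 29 promoters and in 6.33% of the 33465 promoters of the table. Of the 10 members that stood out in WKY replicate 1, 7 had a promoter, and 6 of those 7 held a match (Cxcl1, Cxcl2, Ccl7, Ccl20, Il6 and Tlr2; Sod2 held none). Among the other members 5 of 21 held one (Cxcl10, Nfkb2, Nfkbia, Tnfaip3 and Vcam1). Since the members were picked as genes of the NF-kB response, the share over all of them is no independent finding. The split into these groups was made on the levels in WKY replicate 1 and was not tested. The 21 include Il1a, Il1b and Csf2 with 0 counts and Tnf and Sele with at most 1 count in any library, which could not stand out. The AP-1 motif TGANTCA was in 6 of the 29 promoters and in 6.34% of all, and the TATA box TATAAA in 10 of 29 and in 12.9% of all. A match is a description of the letters and not a measured binding site. Ccl2, Lif, Selp, Ccl5, Csf1, Csf3, Birc3 and Relb had no entry. The promoters shown were chosen after the values were seen. Shown are the 6 promoters with a match from genes that stood out in WKY replicate 1, and, for contrast, that of Il33 (its upstream start), whose levels did not overlap between the strains and which held none, 5′ to 3′ with kappa B matches in capitals.
Cxcl1, chr14:17479322-17479571, minus strand: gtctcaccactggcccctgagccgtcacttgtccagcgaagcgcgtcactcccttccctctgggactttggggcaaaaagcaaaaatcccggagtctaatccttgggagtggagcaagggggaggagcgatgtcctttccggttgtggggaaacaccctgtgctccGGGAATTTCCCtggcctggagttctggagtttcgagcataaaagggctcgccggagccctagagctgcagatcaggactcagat
Cxcl2, chr14:17467256-17467505, minus strand: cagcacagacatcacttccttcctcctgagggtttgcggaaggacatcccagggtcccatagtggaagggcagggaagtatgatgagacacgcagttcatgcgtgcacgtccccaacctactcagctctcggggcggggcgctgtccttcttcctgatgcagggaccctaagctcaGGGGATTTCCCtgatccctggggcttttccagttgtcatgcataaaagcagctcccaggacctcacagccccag
Ccl7, chr10:67513845-67514094, plus strand: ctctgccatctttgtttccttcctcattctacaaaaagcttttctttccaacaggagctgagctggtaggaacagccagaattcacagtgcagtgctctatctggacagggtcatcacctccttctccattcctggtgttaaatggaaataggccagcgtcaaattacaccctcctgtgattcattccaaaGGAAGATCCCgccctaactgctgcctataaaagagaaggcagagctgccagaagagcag
Ccl20, chr9:91836909-91837158, plus strand: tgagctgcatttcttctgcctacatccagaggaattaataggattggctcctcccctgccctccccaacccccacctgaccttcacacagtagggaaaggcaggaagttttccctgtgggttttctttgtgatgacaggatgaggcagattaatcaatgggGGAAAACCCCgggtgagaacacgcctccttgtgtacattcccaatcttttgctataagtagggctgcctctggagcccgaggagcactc
Il6, chr4:5894576-5894825, minus strand: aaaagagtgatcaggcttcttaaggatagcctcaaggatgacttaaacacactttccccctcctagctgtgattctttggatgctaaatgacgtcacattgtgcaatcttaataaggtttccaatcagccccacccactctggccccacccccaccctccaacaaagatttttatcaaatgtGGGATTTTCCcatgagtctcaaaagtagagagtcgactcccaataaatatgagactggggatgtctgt
Tlr2, chr2:171504558-171504807, minus strand: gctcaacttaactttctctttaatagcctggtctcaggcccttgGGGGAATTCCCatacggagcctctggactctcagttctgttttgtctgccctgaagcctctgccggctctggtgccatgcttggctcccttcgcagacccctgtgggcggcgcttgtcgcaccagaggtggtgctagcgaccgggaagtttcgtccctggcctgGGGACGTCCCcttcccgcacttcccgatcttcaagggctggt
Il33, chr1:237115323-237115572, plus strand: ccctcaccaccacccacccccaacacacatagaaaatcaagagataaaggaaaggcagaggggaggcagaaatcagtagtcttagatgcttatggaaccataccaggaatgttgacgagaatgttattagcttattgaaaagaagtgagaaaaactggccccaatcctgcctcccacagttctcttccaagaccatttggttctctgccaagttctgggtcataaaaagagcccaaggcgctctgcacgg

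In Cxcl1 the matches lay 84 to 74 bases before the start, on both strands, and in Cxcl2 they lay 74 to 64 bases before it. In Il6 the match lay 68 to 59 bases, in Ccl7 59 to 50 bases and in Ccl20 89 to 80 bases before the start. Tlr2 held overlapping matches 206 to 196 bases and a further match 42 to 33 bases before it.

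**Figure D1:**
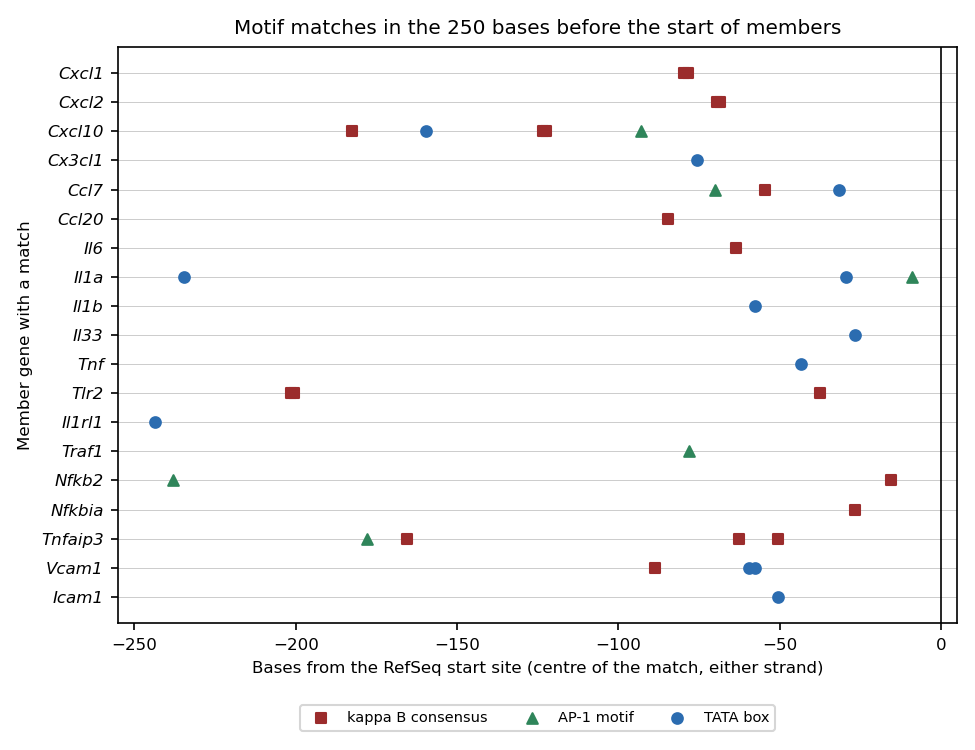
Positions of motif matches in the 250 bases before the RefSeq start, 1 row per member with a match; the x axis is in bases from the start, and squares, triangles and circles are the kappa B consensus, the AP-1 motif and the TATA box. Of the 11 members with the kappa B consensus, Cxcl10 is the one whose matches all lie more than 100 bases before the start.

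Among the chemokines, Cxcl1, a neutrophil attractant, had 335, 7.72 and 1.06 CPM in WKY replicates 1, 2 and 3 and 5.83, 8.26 and 2.03 CPM in the SHR replicates. WKY replicate 1 was high alone, at 38.3 times the next highest library, and the other WKY libraries lay within or below the SHR range. By edgeR, SHR over WKY came to a log2 fold change of -3.38 (adjusted p = 0.539, SE 2.01) with all libraries and 0.26 (SE 0.39, adjusted p = 0.843) without WKY replicate 1.

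Ccl2, the main attractant of monocytes, had 599, 42.98 and 4.35 CPM in the WKY replicates and 18.7, 43.4 and 4.57 CPM in those of SHR. Its neighbour in function Ccl7 had 342, 29.2 and 1.43 CPM against 13.1, 39.5 and 0.78 CPM. In both genes WKY replicate 1 was highest, at 13.6 and 8.58 times the next library, the other batch 1 libraries were intermediate and both batch 2 libraries were lowest. The strain difference of Ccl2 went from -2.42 (SE 1.35, adjusted p = 0.509) to -0.26 (SE 0.41, adjusted p = 0.85) without WKY replicate 1, and that of Ccl7 from -2.43 (SE 1.13, adjusted p = 0.445) to -0.38 (SE 0.57, adjusted p = 0.844).

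Cxcl2, a neutrophil attractant related to Cxcl1, had 100 counts in WKY replicate 1 and 0 or 1 in each of the other 5 libraries. Ccl20, which attracts cells bearing CCR6, had 169 counts there, 3 in SHR replicate 3 and 0 in the other 4. Neither could be tested. Outside that library both were at or under 3 counts.

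The remaining chemokines followed another order. Cx3cl1, the membrane-bound chemokine fractalkine, had 10.5, 1.22 and 7.52 CPM in the WKY replicates and 1.36, 1.27 and 11.5 CPM in those of SHR, so that WKY replicate 1 and both batch 2 libraries were high together. Cxcl12, the ligand of CXCR4, had 718, 184 and 788 CPM against 215, 244 and 588 CPM, with the same 3 libraries high. Cxcl10, an interferon-inducible attractant of T cells, had 6.41, 1.74 and 4.73 CPM in WKY and 3.73, 3.57 and 7.33 CPM in SHR, highest in SHR replicate 3. Cxcl16, a membrane-bound chemokine that is also a scavenger receptor, had 60.6 CPM in WKY replicate 1, 35.4 CPM in SHR replicate 3 and 8.52 to 13.1 CPM elsewhere. The strains overlapped in all 4, with log2 fold changes between -1.23 and 0.10 with all libraries and between -0.01 and 0.86 without WKY replicate 1.

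**Figure D2:**
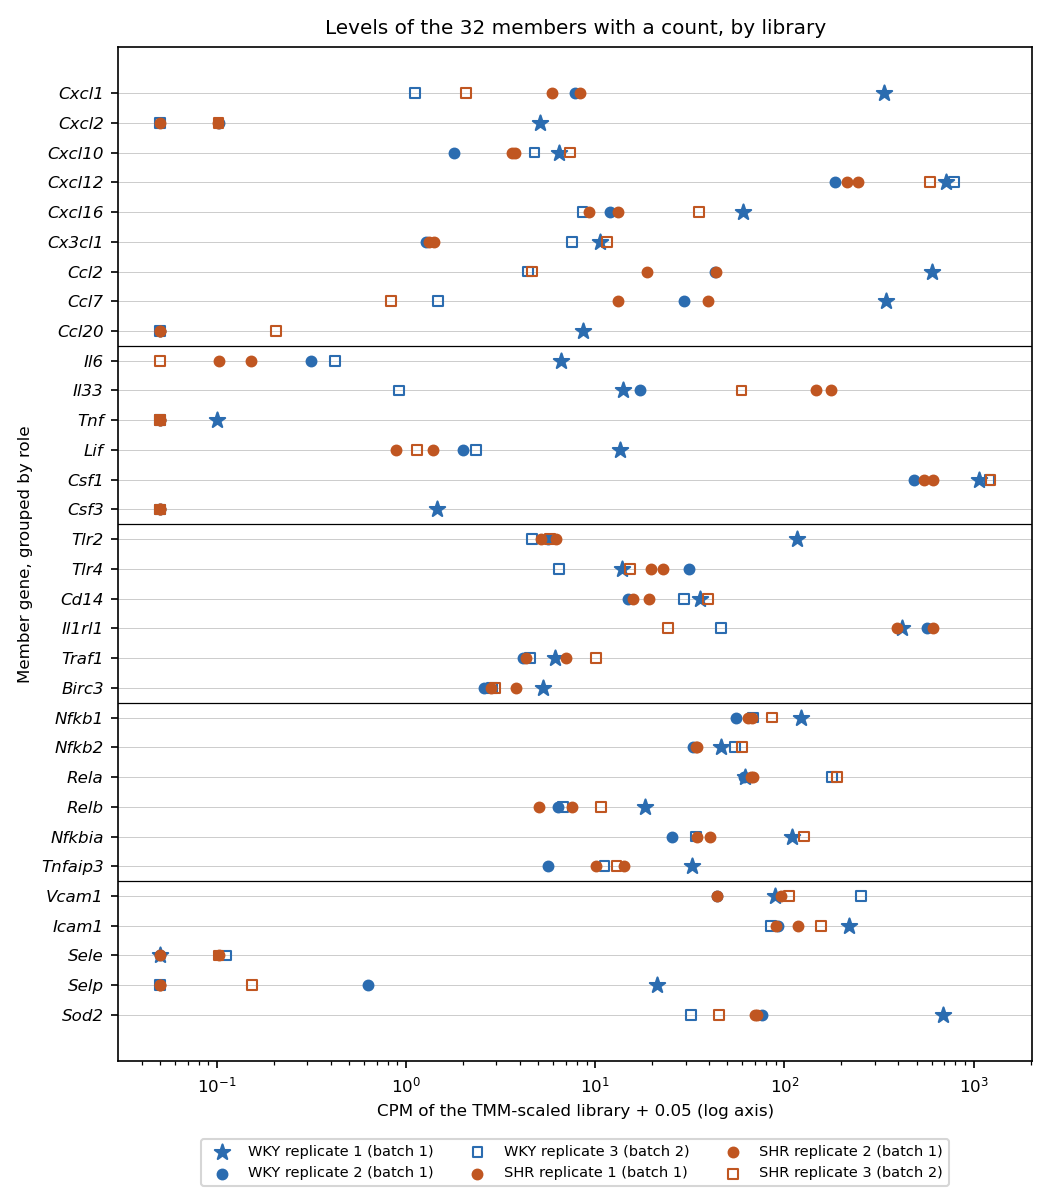
Levels of the 32 members with a count in each library, on a log axis of CPM with 0.05 added; blue is WKY, orange SHR, open squares are batch 2 and the star is WKY replicate 1. The star lies far to the right of the other symbols for several members, among them Cxcl1, Ccl2, Tlr2 and Sod2. For Il33 all SHR symbols lie to the right of all WKY symbols.

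Among the cytokines, Il33 separated the strains. It encodes interleukin-33, an alarmin kept in the nucleus of barrier and stromal cells and released on damage. It had 14.0, 17.2 and 0.87 CPM in the WKY replicates and 146, 177 and 59.3 CPM in the SHR replicates (10.7 ± 8.66 and 128 ± 61.2, SD, n = 3 each). The lowest SHR library was thus above the highest WKY library. The log2 fold change was 4.05 (SE 0.58) with an unadjusted p of 0.00081 and an adjusted p of 0.103 by edgeR, so it did not pass with all libraries. Without WKY replicate 1 it was 4.11 (SE 0.74, adjusted p = 0.252), and with the replicate number as a block 4.07 (SE 0.65, adjusted p = 0.27).

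The difference of Il33 passed within batch 1, at 3.37 (SE 0.20, adjusted p = 0.015), where 0.0873% of genes were called higher. In batch 2 the ratio of the single libraries was 5.45 on the log2(CPM + 0.5) scale. DESeq2 also called it, at 4.17 (SE 0.52, adjusted p = 7.88e-13) with all libraries and at 4.26 (SE 0.57, adjusted p = 4.75e-11) without WKY replicate 1, when it called 5.33% and 3.18% of genes. Of the 11 fibroblast markers, Tcf21, Lum, Dpt, Dcn, Col3a1 and Pdgfra were higher in every SHR library than in every WKY library, as Il33 was. Over all genes tested, 9.81% showed no overlap between the strains, in either direction. Tcf21, a transcription factor of fibroblasts, was called higher (0 to 0.124 CPM in WKY and 1.17 to 23.96 CPM in SHR, adjusted p = 0.0373 by edgeR). Lum, a collagen-binding proteoglycan, had 16.8, 29.7 and 69.2 CPM in WKY and 172, 85.8 and 599 CPM in SHR, and Dpt, the matrix protein dermatopontin, 0.10, 0.74 and 0.06 against 25.8, 15.6 and 42.6 CPM, but neither passed (adjusted p = 0.0961 and 0.103 by edgeR). Dcn, Col3a1 and Pdgfra did not pass either (adjusted p = 0.272, 0.334 and 0.277 by edgeR). The collagen genes Col1a1 (adjusted p = 0.949) and Col1a2 (adjusted p = 0.59) overlapped between the strains. So did Pi16 (adjusted p = 0.944), Mfap5 (adjusted p = 0.471) and Dpp4 (adjusted p = 0.384). The part of these genes in the difference of Il33 was not tested, and in bulk RNA fewer cells of a type cannot be told apart from less RNA per cell.

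Il1rl1 encodes ST2, the receptor of interleukin-33, and did not follow its ligand in the strain difference. It had 416, 568 and 46.2 CPM in the WKY replicates and 392, 613 and 24.3 CPM in the SHR replicates. The 4 libraries of batch 1 lay between 392 and 613 CPM in both strains, and the 2 of batch 2 were far lower. The strain difference was -0.28 (SE 0.30, adjusted p = 0.723) and -0.50 (SE 0.31, adjusted p = 0.642) without WKY replicate 1. Batch 2 over batch 1 gave -3.86 on the log2 scale (adjusted p = 0.00197, SE 0.39). Il33 was lower in batch 2 as well, at -2.35 (SE 0.63, adjusted p = 0.0327), and at -2.32 (SE 0.68, adjusted p = 0.0606) without WKY replicate 1.

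Il6, the interleukin that drives the acute-phase response, had 129, 5 and 6 counts in the WKY replicates and 1, 2 and 0 counts in the SHR replicates. The strains did not overlap, but the level in all but WKY replicate 1 was at or near the detection limit. It was too low for the filter; without a filter edgeR gave an unadjusted p of 0.0107 and an adjusted p of 0.281. DESeq2, which called 5.33% of all genes, called it lower in SHR (adjusted p = 0.0121), at a log2 fold change of -5.39 (SE 1.52). Without WKY replicate 1 the DESeq2 estimate was -3.30 (SE 2.39) with an unadjusted p of 0.168 and no adjusted p, so the call was lost while each SHR library stayed below each WKY library.

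Lif, a cytokine of the interleukin-6 family, had 13.5, 1.96 and 2.30 CPM in WKY and 0.84, 1.33 and 1.09 CPM in SHR. Each SHR library was below each WKY library, also without WKY replicate 1. Its log2 fold change went from -2.27 (SE 0.86, unadjusted p = 0.0416, adjusted p = 0.362) to -0.95 (SE 0.46, adjusted p = 0.57). Csf1, the growth factor of macrophages, had 1066, 482 and 1214 CPM in WKY and 548, 613 and 1227 CPM in SHR, with WKY replicate 1 and both batch 2 libraries high and the strains overlapping. Csf3, the granulocyte growth factor, had 28 counts in WKY replicate 1 and 0 in the other 5 libraries, and Tnf, the gene of tumour necrosis factor, had 1 count in WKY replicate 1 and 0 elsewhere.

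Among the sensors, Tlr2, the receptor of bacterial lipoproteins, had 117, 5.55 and 4.60 CPM in the WKY replicates and 5.09, 6.17 and 5.72 CPM in those of SHR. The 5 other libraries differed little, and WKY replicate 1 was 17.6 times the next highest. Its strain difference was -2.36 (SE 1.46, adjusted p = 0.549) and became 0.14 (SE 0.28, adjusted p = 0.889) without that library. Tlr4, the receptor of bacterial lipopolysaccharide, went another way, with 13.9 CPM in WKY replicate 1, 31.4 CPM in WKY replicate 2, 6.40 CPM in WKY replicate 3 and 15.3 to 22.7 CPM in SHR. Its co-receptor gene Cd14 had 35.9, 14.8 and 29.4 CPM against 19.2, 15.8 and 39.3 CPM, with the same 3 libraries high as for Csf1. Traf1, an adaptor below receptors of the tumour necrosis factor family, had 6.11, 4.12 and 4.48 CPM in WKY and 6.93, 4.23 and 10.03 CPM in SHR. Both it and the ubiquitin ligase gene Birc3 (2.54 to 5.25 CPM) overlapped between strains.

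Rela, the gene of the p65 subunit of NF-kB, had 61.7, 60.96 and 178 CPM in the WKY replicates and 68.5, 66.5 and 190 CPM in the SHR replicates, level across batch 1 and higher in both batch 2 libraries. Nfkb2 had 46.2, 32.8 and 54.9 CPM against 34.1, 34.4 and 59.7 CPM. Relb, which pairs with p52, had 18.4, 6.29 and 6.72 CPM in WKY and 7.51, 5.0 and 10.7 CPM in SHR, highest in WKY replicate 1 and next in SHR replicate 3. Nfkb1 likewise had 123 CPM in WKY replicate 1, 86.0 CPM in SHR replicate 3 and 55.7 to 68.1 CPM elsewhere.

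Among the inhibitor genes, which NF-kB itself induces, Nfkbia had 109, 25.4 and 34.1 CPM in WKY and 40.5, 34.4 and 127 CPM in SHR, with WKY replicate 1 and SHR replicate 3 high. The strain difference was 0.01 (SE 0.83, adjusted p = 0.998) and became 1.11 (SE 0.35, unadjusted p = 0.0252, adjusted p = 0.437) without WKY replicate 1, when each SHR library was above each WKY library. Tnfaip3, which encodes the ubiquitin-editing enzyme A20, had 32.3 CPM in WKY replicate 1 and 5.60 to 14.1 CPM in the other libraries, with SHR replicate 2 next highest.

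Of the adhesion molecules, Vcam1 had 88.6, 43.9 and 253 CPM in the WKY replicates and 95.8, 43.95 and 106 CPM in the SHR replicates, highest in WKY replicate 3. It was the one member with estimated counts that were not whole, as occurs where reads are divided between features. Icam1 had 218, 92.7 and 84.8 CPM against 89.7, 118 and 157 CPM, again with WKY replicate 1 and SHR replicate 3 highest. The selectin genes were low outside WKY replicate 1. Sele, the gene of E-selectin, had at most 1 count in any library, and Selp, that of P-selectin, had 419 counts in WKY replicate 1, 11 in WKY replicate 2 and at most 2 in the others.

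Sod2, the mitochondrial superoxide dismutase and a target of NF-kB, had 688, 76.1 and 32.02 CPM in WKY and 69.8, 71.8 and 44.9 CPM in SHR. WKY replicate 1 was 8.99 times the next library, and the batch 2 libraries were the lowest. The strain difference was -1.54 (SE 1.07, adjusted p = 0.594) and 0.14 (SE 0.19, adjusted p = 0.832) without it.

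**Figure D3:**
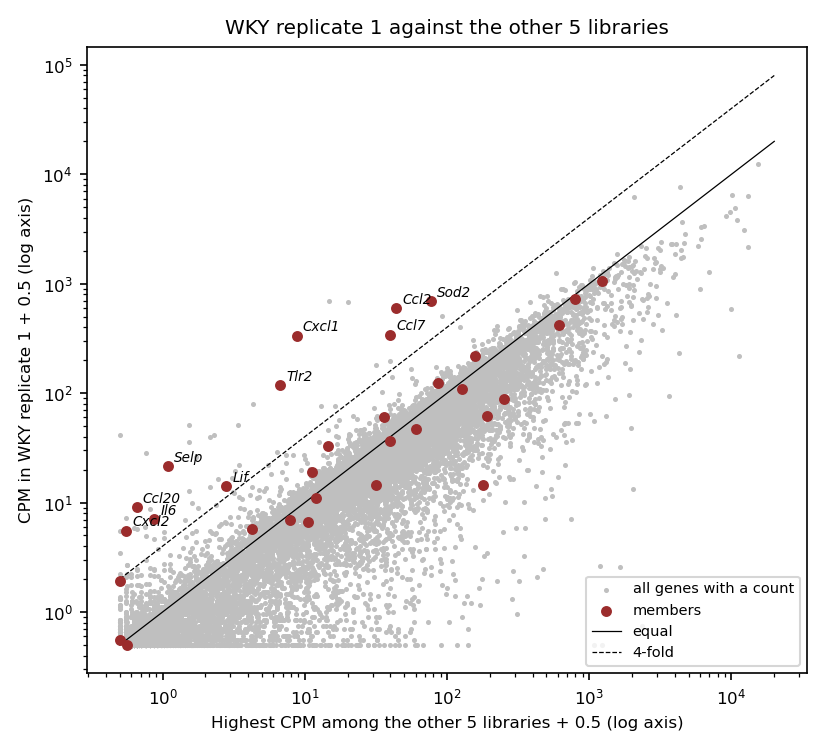
CPM in WKY replicate 1 against the highest CPM among the other 5 libraries, both with 0.5 added and on log axes, for 16193 genes with a count (grey) and the members (red); the solid line marks equal levels and the dashed line 4-fold. The 10 named members lie above the dashed line, which 0.327% of genes reach.

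Over the 25 members tested, the strain comparison turned on WKY replicate 1. With all libraries 0 members were called by edgeR, where 0.254% of all genes were (32 genes, and 6 with the replicate number as a block). At an unadjusted p below 0.05 there were 2, Il33 higher and Lif lower in SHR, against 13.3% of all genes. DESeq2 called Il33 higher and Il6 lower, where it called 5.33% of all genes. Levels of the strains were apart, with no overlap, in 2 of the 25, again Il33 and Lif, against 9.81% of genes. Counts near or below the background say nothing of the members as a set.

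In direction, 19 of the 25 had a log2 fold change below 0 with all libraries, with a median of -0.28 against -0.02 for all genes, of which 52.6% were below 0. Without WKY replicate 1 only 6 were below 0 (Cxcl12, Ccl2, Ccl7, Lif, Il1rl1 and Vcam1), and the median was 0.23 against -0.02 for all genes. The sign turned from negative to positive in 13 members, and in 0 the other way, while 5.95% and 5.94% of all genes turned in each direction. WKY replicate 1 held the highest level of 12 of the 25, so leaving it out raises their SHR over WKY. The direction of the turns is therefore no independent finding. Some turns were within the SE, as in Nfkb2 (-0.10, SE 0.17, to 0.08, SE 0.15). By role, the median of the 7 chemokines tested moved from -1.23 to 0.26 and that of the 6 subunit and inhibitor genes from -0.14 to 0.27.

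Without that library edgeR still called 0 of the 25 members, where it called 0.0311% of genes, with 2 residual degrees of freedom. At an unadjusted p below 0.05 there were 3, all higher in SHR, against 9.84% of genes. They were Il33, Nfkbia and Cxcl10 (0.86, SE 0.33, unadjusted p = 0.0447, adjusted p = 0.496). Il33, Nfkbia and Lif showed no overlap between the strains, 3 of 25 against 14.1% of genes.

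**Figure D4:**
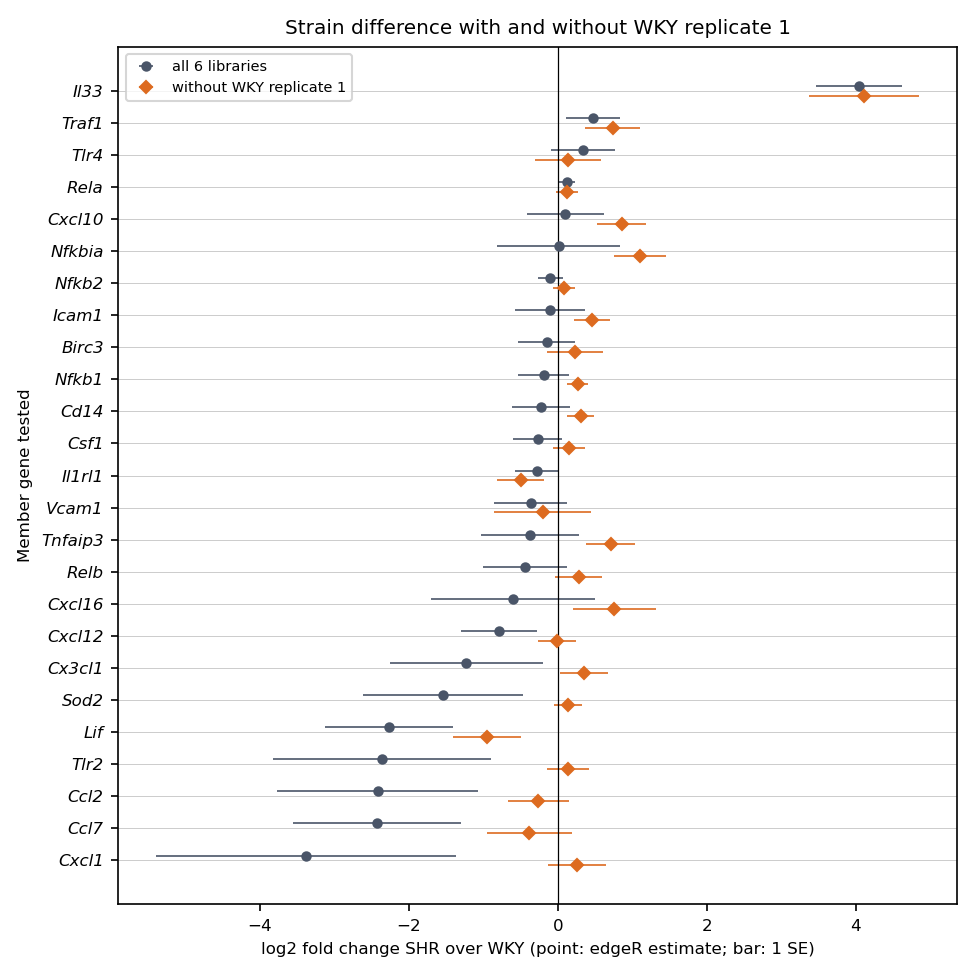
Log2 fold change of SHR over WKY for the 25 members tested (points, edgeR estimates; bars, 1 SE), with all 6 libraries in grey and without WKY replicate 1 in orange. The orange points of Cxcl1, Ccl2, Ccl7, Tlr2 and Sod2 lie near 0 with shorter bars, and Il33 stays near 4 in both.

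The batch was tested in the same fit, adjusted for strain. In batch 2, 2 members were called higher, Rela (log2 fold change 1.51, SE 0.11, adjusted p = 0.00115) and Nfkb2 (0.64, SE 0.18, adjusted p = 0.033), where 21.0% of genes were. Called lower were 3, Il1rl1, Ccl7 (-6.14, SE 1.55, adjusted p = 0.0277) and Il33 (-2.35, SE 0.63, adjusted p = 0.0327), where 22.5% of genes were. Neither count was above the background share.

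Without WKY replicate 1 the calls were 8 higher and 5 lower, against 18.2% and 19.1% of genes. Higher in batch 2 were Cxcl10, Cxcl12, Cx3cl1 (2.90, SE 0.31, adjusted p = 0.00616), Csf1, Cd14, Nfkb2, Rela and Nfkbia. Lower were Cxcl1 (-2.24, SE 0.42, adjusted p = 0.0165), Ccl2 (-3.01, SE 0.47, adjusted p = 0.0118), Ccl7 (-4.74, SE 0.68, adjusted p = 0.011), Il1rl1 (-4.06, SE 0.37, adjusted p = 0.0049) and Sod2 (-0.92, SE 0.20, adjusted p = 0.0224). Thus the chemokine genes Cxcl1, Ccl2 and Ccl7 were lower, and Cxcl10, Cxcl12 and Cx3cl1 higher, in the same libraries. Il33 was no longer called (-2.32, SE 0.68, adjusted p = 0.0606). The smooth muscle markers, taken as a sum, were higher in batch 2 (2223 and 8580 CPM) than in batch 1 (784 to 957 CPM). Every marker of that list except Tagln and Des was higher in both batch 2 libraries than in any batch 1 library. Tagln reached its lowest level, 480 CPM, in SHR replicate 3. Des fell to 3.11 CPM in WKY replicate 3, from 21.8 and 19.9 CPM in WKY replicates 1 and 2. The part of these markers in the batch differences of the members was not tested.

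**Figure D5:**
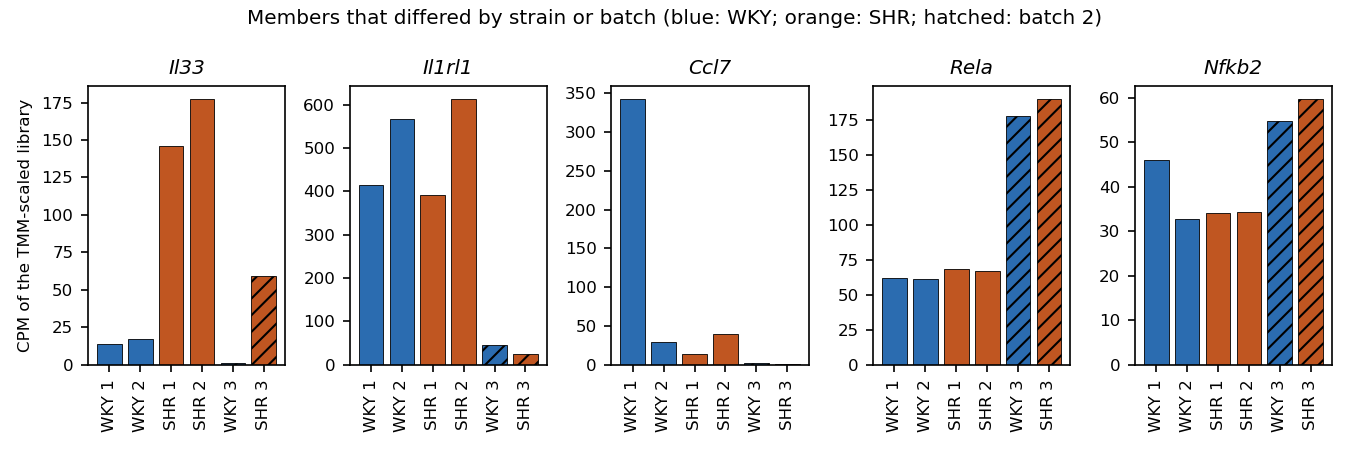
Levels of Il33, Il1rl1, Ccl7, Rela and Nfkb2 in each library in CPM, batch 1 libraries left and batch 2 libraries (hatched) right; blue is WKY and orange SHR, 1 bar per library. Il33 is higher in SHR in both batches, Il33 and Il1rl1 drop in batch 2 in both strains, and Rela rises in batch 2 in both strains.

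Other genes of the pathway were described from lists of 195 genes, of which 179 were in the table. Of 44 tested receptors and signalling genes of NF-kB outside the members, edgeR called 0 for strain, and p before adjustment was below 0.05 in 3 that were higher and 4 that were lower in SHR. DESeq2 called 2, both higher. Over all genes the shares were 13.3% before adjustment and 5.33% by DESeq2, which are the shares to read against for each list that follows too. The smallest p-values were those of Birc2, a ubiquitin ligase of the tumour necrosis factor receptor complex (24.7, 23.6 and 17.7 CPM in WKY, 34.8, 31.8 and 36.7 CPM in SHR, adjusted p = 0.235), the deubiquitinase gene Cyld (66.5, 79.5 and 60.6 against 42.7, 59.5 and 29.8 CPM, adjusted p = 0.272) and the kinase subunit gene Ikbkg (adjusted p = 0.296). Nfkbiz, an inducible nuclear cofactor of NF-kB, was the gene of this list that stood out in WKY replicate 1, with 181 CPM there and 12.2 to 31.1 CPM elsewhere.

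Of 27 tested further targets of NF-kB, edgeR called 0, and p before adjustment was below 0.05 in 1 higher and 3 lower genes. DESeq2 called 2 lower, Tnfaip2 (adjusted p = 0.0481) and Lcn2 (adjusted p = 0.0294), the latter with WKY replicate 1 far above the rest. WKY replicate 1 held the highest level of 18 of the 27 and of 12 of the 25 members, against 17.5% of all genes tested. At least 4-fold above every other library there were Lcn2, the siderophore-binding lipocalin (697 CPM against 0.46 to 14.2 CPM), the pentraxin gene Ptx3 (679 against 0.75 to 19.7 CPM), the stromelysin gene Mmp3 (79.0 against 0.25 to 3.83 CPM) and Zc3h12a, which encodes an RNase that degrades cytokine transcripts (195 against 12.0 to 39.3 CPM). Tnfaip2 (adjusted p = 0.254), Cflar (adjusted p = 0.279) and Tnfaip6 (adjusted p = 0.329) had the smallest p for strain.

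Further chemokine and cytokine ligands were mostly low, with 11 of 33 tested and 0 called by edgeR (before adjustment p was below 0.05 in 1, which was higher). The neutrophil attractants Cxcl3 (25.7 CPM in WKY replicate 1, at most 1.22 CPM elsewhere) and Cxcl6 (16.1 and at most 1.96 CPM) followed Cxcl1. Tnfsf13b, the B cell survival factor BAFF, had 0.10, 0.63 and 0.19 CPM in WKY and 2.15, 1.33 and 6.55 CPM in SHR, and edgeR gave an adjusted p of 0.272 and DESeq2 one of 0.0266. Ccl19, a ligand of CCR7, had 7.15 CPM in WKY replicate 3 and at most 1.11 CPM elsewhere.

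Of 10 tested receptors of chemokines and cytokines, neither tool called any (0 by each), and in 0 was p before adjustment below 0.05 by edgeR. The smallest p was that of Lifr, the receptor of leukaemia inhibitory factor (2.38 to 5.66 CPM in WKY and 3.99 to 20.4 CPM in SHR, adjusted p = 0.389), followed by Ackr3 (adjusted p = 0.482) and Il11ra1 (adjusted p = 0.556).

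In WKY replicate 1, 0 of 28 interferon response genes and 0 of 21 immediate-early and stress genes were at least 4-fold above every other library, where 0.327% of all genes were, so these counts do not set the lists apart. For strain, edgeR called 0 of the 25 tested interferon genes, and p before adjustment was below 0.05 in 3 higher genes and 1 lower gene. By DESeq2 there were 2 calls in each direction (all genes: 13.3% before adjustment and 5.33% by DESeq2). Psmb8, an immunoproteasome subunit, had 9.95, 16.8 and 6.22 CPM in WKY and 43.04, 35.99 and 24.7 CPM in SHR, and edgeR gave it 1.70 on the log2 scale (adjusted p = 0.0961, SE 0.25), and Ifih1, a sensor of viral RNA, 10.1 to 12.1 against 16.2 to 21.5 CPM (adjusted p = 0.168). Tap1, the peptide transporter, was lower, with 47.9 to 58.1 against 37.2 to 43.5 CPM (adjusted p = 0.249). Of the 21 immediate-early genes edgeR called 0 (before adjustment p was below 0.05 in 3 higher genes and 1 lower gene, and DESeq2 called 1, Egr1), with the smallest p for Egr1 (adjusted p = 0.126), Egr3 (adjusted p = 0.317) and Ier2 (adjusted p = 0.322).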

How the data were processed

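Total RNA of 3 WKY and 3 SHR cultures was sequenced on a DNBSEQ instrument with paired reads of 100 bp, per the labels' protocols. The authors deposited estimated counts per gene, not normalized, 8.96% of them not whole (tolerance 0.001). The build Rnor_6.0 and the tools RSEM 1.2.28, Bowtie2 2.4.4 and DESeq2 1.42.1 stand, with no role stated, in the submitters' processing notes. How strand was handled was not given in the sources used here. A second deposited table of log2 values was not used here, because the batch difference had been taken out of it.

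Estimated counts were rounded, genes were kept with filterByExpr by strain (12614 of 16770), and libraries were scaled by TMM factors. The strain test was edgeR's quasi-likelihood F-test (edgeR 4.0.16, R 4.3.3) in a model of batch and strain (3 residual degrees of freedom, 2 without WKY replicate 1). P-values are two-sided, with Benjamini-Hochberg adjustment across every gene tested, and calls are adjusted p-values below 0.05. Each SE is the size of the log2 fold change divided by the square root of F. CPM are relative to these scaled libraries. Promoters came from RefSeq (GRCr8). DESeq2 1.42.0 (Wald test), other scaling, no filter, no batch term, a replicate block, batch 1 alone and leaving out each library were alternatives; DESeq2 without WKY replicate 1 was added after seeing the data. On simulated data with known changes the test code was checked first.

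Members and lists were chosen with earlier results of these data known. All members are named. Values in every library are given for members called in any fit or at least 4-fold above every other library, and for the 3 of each role with the smallest p; of other lists, the 3 genes with the smallest p and those at least 4-fold higher in WKY replicate 1 are named. Lum, Dpt and the markers named were chosen after their values were seen. Any 2 libraries differed by more than sampling noise (chi-square per gene 46.0 to 473). Deviations from the strain mean correlated at 0.303, 0.4 and 0.655 between libraries with replicate numbers 1, 2 and 3 in both strains. Replicates 1 and 2 of opposite strains, which share batch 1, correlated at 0.484 and 0.493, above the 0.303 and 0.4 of the same-number pairs of that batch. Pairing by number within batch 1 was thus not borne out, and the replicate number was used only in the alternative with a block.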

Additional observations from a re-analysis of the deposited data

How the results depend on the processing

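With the replicate block 0 members were called in either direction and 6 genes in all, against 32 without it, and it changed the call of no member. Members called higher in SHR numbered 0 with all libraries and 1, Il33, by DESeq2, within batch 1 and by DESeq2 without WKY replicate 1; with 1 library left out the number lay between 0 and 1. It was called without WKY replicate 3 (adjusted p = 0.0235) and without SHR replicate 3 (adjusted p = 0.0185). Members called lower numbered 1, Il6, by DESeq2 and 0 in every edgeR alternative. Over all genes DESeq2 called 730 and, without WKY replicate 1, 431, the fit without a batch term called 2, and with 1 library left out the count lay between 0 and 65. The number of tested members below 0 lay between 6 and 21 with 1 library left out and was 5 by DESeq2 without WKY replicate 1. Their median lay between -0.58 and 0.23 with 1 library left out; it turned positive without WKY replicate 1, at 0.23 by edgeR and 0.25 by DESeq2, and without any other library it stayed negative. Members called higher in batch 2 were 2 with all libraries, 4 by DESeq2 and 1 to 8 with 1 library left out (8 without WKY replicate 1), and members called lower 3 and 1 to 5. Members 4-fold above every other library in WKY replicate 1 were 6 of those tested, 10 without the filter, 7 at 2-fold and 5 at 8-fold. The cause of these changes was not tested. Of 325 single-member values under an alternative, 320 kept their side of the threshold, and the other 5 are those of Il33. As 0 members were called in the main fit, only a new call could change side, and a turn of sign without a call counted as kept. Il6, which the filter left out, is not among the 325. The tally is thus no measure of how stable the differences were. The fits had 2 or 3 residual degrees of freedom (4 without the batch term), which limits what could pass, and 11 of the 36 members lay too low for the test.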

Other observations

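Of the 53 genes at least 4-fold above every other library in WKY replicate 1, 10 were members, 7 belonged to the other lists and 36 to none. Among the 36, chosen after their values were seen, were 2 genes of acute-phase plasma proteins. Haptoglobin (Hp) had 50.9 CPM there and 0.187 to 2.91 CPM elsewhere, and orosomucoid (Orm1) had 39.3 CPM and 0.124 to 1.64 CPM. The zinc importer gene Slc39a14 had 502 CPM and 53.1 to 92.1 CPM, the inflammasome sensor gene Nlrp3 18.8 CPM and 0.787 to 2.75 CPM, and the oxidase gene Nox1 75.5 CPM and 1.55 to 12.4 CPM. Tnfrsf9, the costimulatory receptor 4-1BB, had 35.4 CPM and 0.153 to 1.04 CPM. The genes named so far do not stand for all 36. The largest ratios among the 36 were those of RGD1565462 (41.2 CPM there and 0 CPM elsewhere), Saal1 (27.7 CPM and 0.052 to 0.264 CPM) and Bmp7 (50.6 CPM and 0.204 to 1.04 CPM). Pitx1, Hoxc10 and Hoxa10 were among the 36 too, at 5.4, 4.44 and 2.17 CPM there. These values describe 1 library and have no replicate.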
